A study of Mus musculus with 9 samples.

Results

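Mitosis and its approach in G2 were read in mammary tumors through 36 genes, chosen by name from the 55403 rows of the count table and matched to mouse symbols on GRCm38. They are 6 cyclin and CDK1 control genes, 6 mitotic kinases, 5 centromere and kinetochore genes, 3 chromosome and passenger complex genes, 6 spindle genes, 7 central spindle and cytokinesis genes and 3 genes of the anaphase-promoting complex and its substrates. Transcripts of all 36 were found in every library, at 14 to 3431 counts, and none was called different between tumors lacking Hsp72 and tumors with it. Over all genes tested 0.0886% were called. KO tumors had the larger fitted mean for 30 of the 36, where 50.0% of all genes did. The libraries of the groups overlapped for all 36, and only 2.70% of all genes had groups that did not overlap.

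The KO group is 5 mammary tumors of female C57BL/6 mice with the genotype Hspa1a/Hspa1b-/-, aged 120 to 125 days. The WT group is 4 such tumors with the genotype Hspa1a/Hspa1b+/+, aged 122 to 132 days, of which WT 2 at 132 days is the only one above 125 days. All 9 tumors are from mice with MMTV-PyMT, a transgene with the polyoma middle T oncogene under the promoter of a mammary tumor virus, together with a human MUC1 transgene, and the labels name no treatment. HSP72 is the stress-inducible HSP70 chaperone encoded by Hspa1a and Hspa1b, and the series asks which tumor processes depend on it. The labels give the genotype of the animal and name no tissue-specific driver of the deletion. Per the labels' protocols, tumors were dissociated with collagenase and trypsin and strained before extraction, so the RNA is of the cells that came through. The labels do not say that each tumor is from a separate animal, so the p-values speak only of sample-to-sample spread, which may be technical.

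Entry into mitosis is driven by CDK1, which is activated by A- and B-type cyclins and released from inhibitory phosphates by CDC25 phosphatases. Polo-like and Aurora kinases then build the spindle, and the kinetochore holds chromosomes to microtubules under the spindle checkpoint. The anaphase-promoting complex with CDC20, which the checkpoint restrains, marks securin and B-type cyclins for destruction once it is released. Most of these genes are transcribed late in the cell cycle under the MuvB complex with B-MYB and FOXM1, so in a tumor their transcripts are read as a measure of dividing cells. The MMTV-PyMT model gives multifocal carcinomas of luminal epithelium. In bulk RNA a smaller number of dividing cells and less transcript per dividing cell cannot be told apart.

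MuvB binds the cell cycle genes homology region (CHR), and NF-Y binds CCAAT in many promoters of this class, so the promoters of these genes are shown before their levels. RefSeq windows of 300 bases, from 250 before to 50 after the annotated start on GRCm38.p6, were matched for 30 of the 36 by symbol, 32 windows in all, since 2 genes (Ect2 and Prc1) had a pair of overlapping ones. Ccna2, Cdc25c, Foxm1, Aurkb, Tpx2 and Kif20a had none. The letters TTTGAA on either strand were in the windows of 23 of 30 genes (76.7%), against 20.2% of 27025 genes with a window. The form TTTAAA was in 9 of 30 (30%), against 14.9% of all genes, and 26 of 30 (86.7%) held one form or the other, against 30.6%. CCAAT on either strand was in 22 of 30 (73.3%), against 41.1% of all genes, and 21 of 30 (70.0%) held CCAAT with a CHR form, against 12.2%. Matches of different motifs were counted separately where they overlapped. A match describes the letters and is no evidence of binding in these tumors.

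Windows of 6 genes show the range, trimmed to 220 bases before and 30 after the start, written 5′ to 3′ with the motif matches in capitals. The set holds the kinase and cyclins that start mitosis, a kinase of the spindle, the antigen used to count dividing cells and a securin window with no match. Cdk1 lies at chr10:69352883-69353132 on the minus strand, Ccnb1 at chr13:100786457-100786706 on the minus strand and Ccnb2 at chr9:70421525-70421774 on the minus strand. Plk1 lies at chr7:122159215-122159464 on the plus strand, Mki67 at chr7:135716350-135716599 on the minus strand and Pttg1 at chr11:43425952-43426201 on the minus strand.
Cdk1: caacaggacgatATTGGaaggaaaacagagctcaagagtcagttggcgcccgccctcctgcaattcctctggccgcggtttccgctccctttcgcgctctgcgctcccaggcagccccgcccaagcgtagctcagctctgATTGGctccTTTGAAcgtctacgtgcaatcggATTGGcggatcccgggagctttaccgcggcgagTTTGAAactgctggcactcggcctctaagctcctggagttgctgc
Ccnb1: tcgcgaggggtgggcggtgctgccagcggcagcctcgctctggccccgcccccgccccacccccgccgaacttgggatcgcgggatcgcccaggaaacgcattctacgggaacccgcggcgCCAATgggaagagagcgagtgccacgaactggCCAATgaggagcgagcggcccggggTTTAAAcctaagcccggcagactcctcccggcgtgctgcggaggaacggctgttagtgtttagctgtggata
Ccnb2: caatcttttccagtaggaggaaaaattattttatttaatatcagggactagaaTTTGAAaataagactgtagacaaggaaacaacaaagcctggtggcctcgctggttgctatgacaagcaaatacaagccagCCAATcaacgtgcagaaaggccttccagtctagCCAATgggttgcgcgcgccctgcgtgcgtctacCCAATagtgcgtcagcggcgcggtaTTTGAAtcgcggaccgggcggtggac
Plk1: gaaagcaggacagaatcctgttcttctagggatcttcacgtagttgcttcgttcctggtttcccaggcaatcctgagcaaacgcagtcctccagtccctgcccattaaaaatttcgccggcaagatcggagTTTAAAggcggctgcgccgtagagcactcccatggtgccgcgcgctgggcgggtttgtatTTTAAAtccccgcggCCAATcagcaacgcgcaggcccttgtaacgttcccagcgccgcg
Mki67: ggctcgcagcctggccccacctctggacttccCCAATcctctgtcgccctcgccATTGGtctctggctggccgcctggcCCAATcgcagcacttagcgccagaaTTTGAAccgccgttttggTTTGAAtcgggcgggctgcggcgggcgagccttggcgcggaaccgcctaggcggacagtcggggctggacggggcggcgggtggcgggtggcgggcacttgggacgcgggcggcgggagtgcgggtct
Pttg1: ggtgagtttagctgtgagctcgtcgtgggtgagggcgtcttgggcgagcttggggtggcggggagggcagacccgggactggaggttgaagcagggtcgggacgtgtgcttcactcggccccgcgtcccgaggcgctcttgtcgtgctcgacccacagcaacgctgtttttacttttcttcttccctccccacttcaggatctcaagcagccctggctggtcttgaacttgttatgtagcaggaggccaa
Cdk1, Ccnb2 and Mki67 held 5 matches each in these stretches, Ccnb1 and Plk1 held 3 each, and Pttg1 held 0. In the 30 genes' windows, 32 of the 40 distinct CHR sites and 35 of the 52 distinct CCAAT sites began within 100 bases before the nearest start or after it. Positions of single sites were not computed for all genes, so these shares have no background. A CHR form in that stretch was found in 24 of 30 genes, against 14.7% of all genes. Bub1, Nuf2, Nusap1 and Pttg1 held neither CHR form, and Nuf2, Nusap1 and Pttg1 also held no CCAAT. The window of Pttg1 does not reach the annotated 5′ end of the gene at 43426251, so a promoter there was not searched. The same holds for Kif2c, whose annotated 5′ end is at 117182639.

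**Figure D1:**
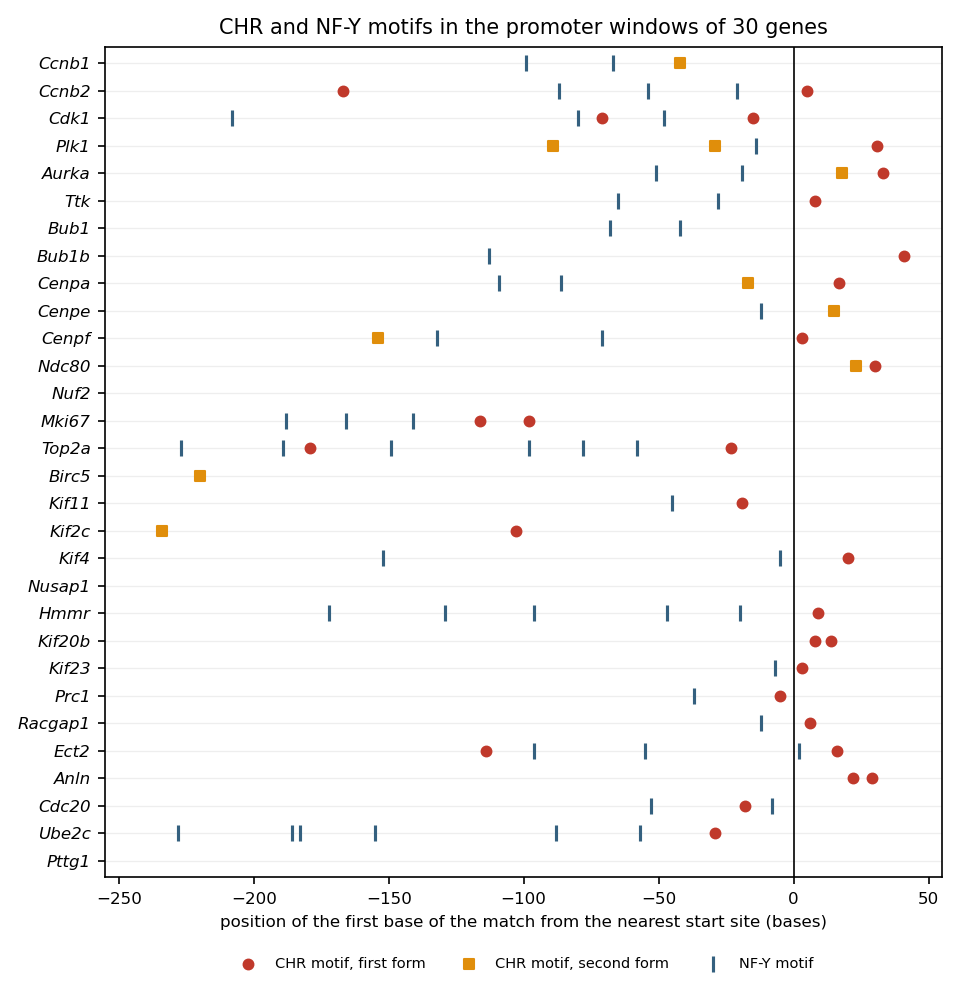
Motif positions in the promoter windows of the 30 genes that had one, by distance from the nearest annotated start site in bases (horizontal axis), 1 row per gene and each site once. The first CHR form is TTTGAA and the second is TTTAAA, and most matches lie within 100 bases before the start or just after it, while the rows of Nuf2, Nusap1 and Pttg1 are empty.

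Sequencing gave 11500920 to 19136317 fragments a library, and 4410399 to 6221181 of them fell on genes. Levels are given as CPM, counts scaled to the effective size of the library. The limit that 0 counts allow, 3 counts, lay between 0.482 and 0.680 CPM and reflects counting error alone. It was taken over the plain total of counts on genes, so it is approximate on the scale of the other levels. The targeted genes follow the labels: Hspa1b averaged 0.203 ± 0.269 CPM in KO and 55.02 ± 22.3 CPM in WT and Hspa1a 0.789 ± 0.578 CPM in KO and 7.36 ± 2.66 CPM in WT (SD, n = 5 and 4). PyMT averaged 10968 ± 2834 CPM in KO and 8729.6 ± 1640.3 CPM in WT, and its log2 fold change was 0.33 ± 0.22 (adjusted p = 0.705 in edgeR). Epithelial markers, all 10 tested, summed to 3426 to 4068 CPM in KO and 3511 to 6718 CPM in WT. All 10 had negative log2 fold changes, with a median of -0.47 and 3 at an unadjusted p under 0.05, and their part in the mitotic values was not tested. The share of fragments that did not map ran from 10.99% in KO 3 to 27.1% in WT 4. KO 3 also had the highest share outside annotated genes, 50.4%, and WT 4 the lowest, 34.0%.

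The comparison asked whether tumors without HSP72 carried more or less of the mitotic transcripts. All 36 genes passed the filter on low counts. The quasi-likelihood test of edgeR called 0 of them at a Benjamini-Hochberg adjusted p under 0.05 over 14665 genes, of which 13 (0.0886%) were called. The smallest adjusted p of a mitotic gene was 0.630. At an unadjusted p under 0.05 edgeR also gave 0 of 36, where 7.95% of all genes passed, with the smallest p of 0.0514 for Foxm1. DESeq2 gave 2 of 36 unadjusted (Cdc25c and Kif2c, against 8.41% of all genes) and limma-voom with sample weights gave 0 (8.64%). With 1 library left out edgeR gave 7 of 36 unadjusted without WT 3, 4 without KO 1, 2 each without KO 2 and WT 1, 1 without KO 5 and 0 without any other, while the number called over all genes was 6 to 13. After adjustment DESeq2 and limma-voom also called 0 of the 36, where DESeq2 called 0.464% and limma-voom 0.130% of all genes.

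Log2 fold changes of KO over WT were positive for 30 genes and negative for 6, where 50.0% of all genes were positive. Their median was 0.31, against -0.00 over all genes tested, and they ran from -0.12 (Pttg1) to 0.67 (Cdc25c). Under other scaling factors 29 to 33 genes were positive, and Ccna2, Aurka, Nusap1 and Anln, all near 0, changed sign under at least 1 of them. The median was 0.16 without KO 3, 0.17 without WT 2 and 0.47 without WT 3. Fitting age as a covariate, which rests largely on WT 2, gave 0.12. The 36 transcripts are counted in the same 9 libraries and move together among them, so 30 positive values are not 30 separate observations. Every 95% interval included 0. The interval of 1 gene (Ccnb1) reached below -1 and those of 11 reached above 1, so for these genes a log2 change of that size is within what the data allow. Libraries of KO and WT overlapped for all 36 genes, where 2.70% of all genes had groups that did not. A p above the threshold does not show that the groups had equal levels.

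**Figure D2:**
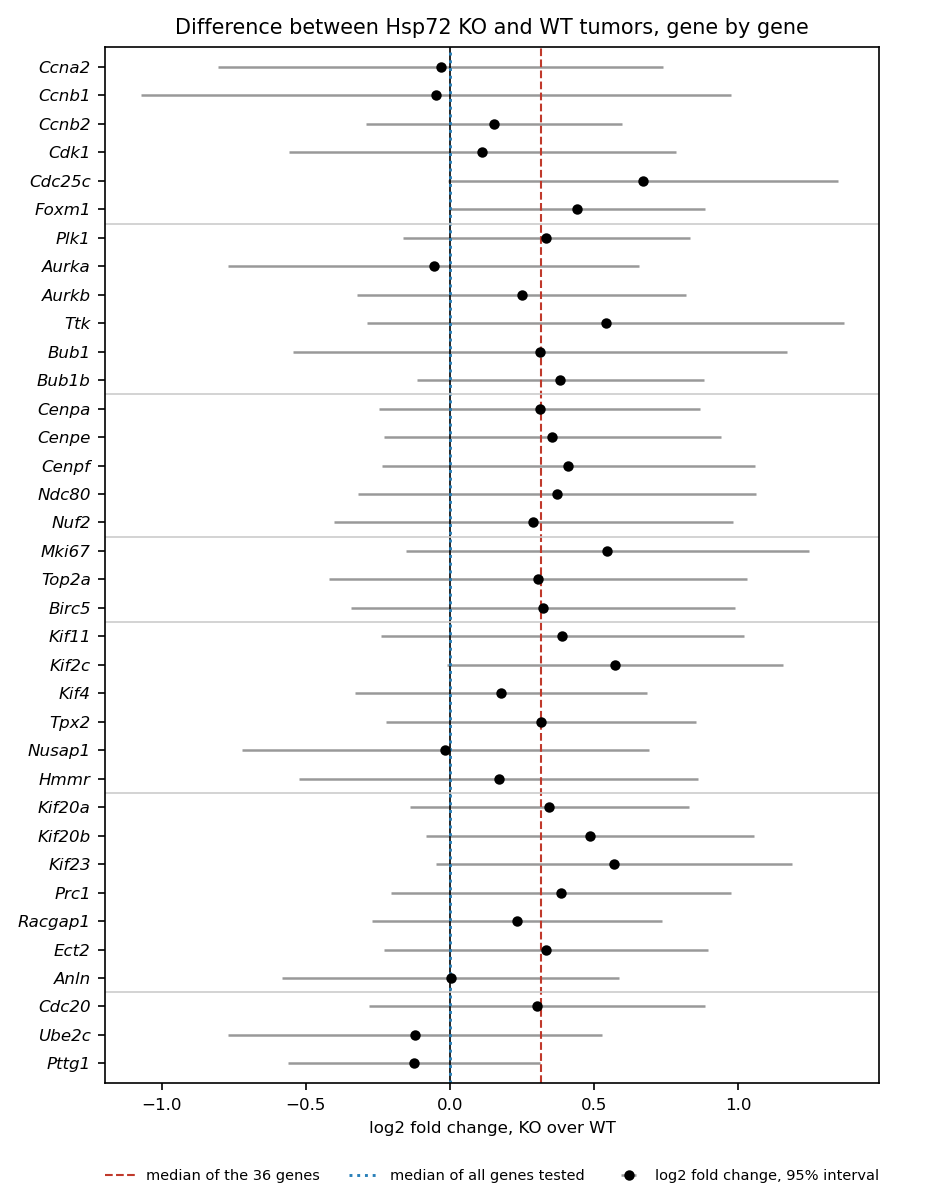
Log2 fold change of each of the 36 genes, KO over WT (horizontal axis), with its 95% interval from the edgeR fit, grouped by role. All 36 intervals cross 0, and 30 of the 36 points lie to its right, with the widest interval at Ccnb1 and dashed and dotted lines at the medians of the 36 (0.31) and of all genes.

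The order of the libraries was shared by most of the genes. Summed over the 36 genes, the level was 945, 1158, 1863, 1554 and 1103 CPM in KO 1 to KO 5, against 1345, 695, 1339 and 735 CPM in WT 1 to WT 4. KO 3 and KO 4 stood highest and WT 2 and WT 4 lowest, with WT 1 and WT 3 above the other 3 KO libraries. The sums averaged 1324 ± 375 CPM in KO and 1029 ± 362 CPM in WT (SD), so the difference of the means was smaller than the SD within either group. The highest library exceeded the lowest 2.68-fold. Mki67 alone made up 21.8% to 30.2% of a library's sum. Without it the sums were 689 to 1299 CPM in KO and 543 to 981 CPM in WT.

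Single genes followed that order closely. KO 3 was the highest library for 19 genes and KO 4 for 12, and the others were Ccna2 and Ccnb1 (WT 1), Aurka (WT 3), Anln (WT 2) and Ube2c (KO 5). WT 2 was the lowest library for 26 genes and WT 4 for 8, with Nusap1 lowest in KO 1 and Pttg1 in KO 3. WT 1 and WT 3 both exceeded WT 2 and WT 4 for 33 of 36 genes, and KO 3 and KO 4 both exceeded the other KO libraries for 28. These splits were described after the values were seen and define no groups. From the lowest to the highest library a gene varied 1.56-fold (Pttg1) to 5.96-fold (Ccnb1), with a median of 2.96-fold.

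**Figure D3:**
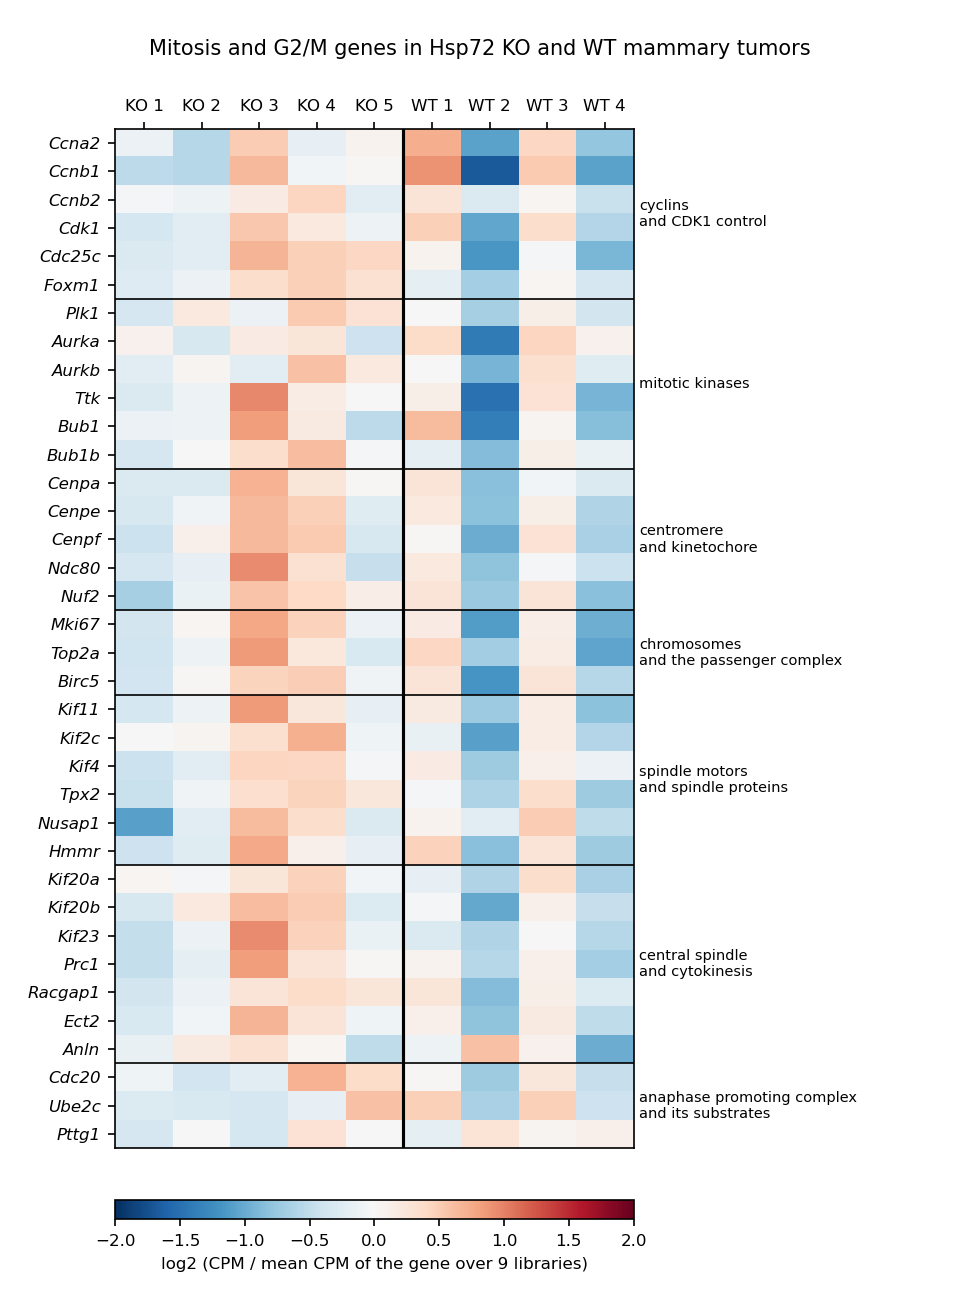
Level of each of the 36 genes in each library relative to the gene's own mean over the 9 libraries, as log2 ratios (color scale), with KO libraries left of WT libraries and genes grouped by role. The columns of KO 3 and KO 4 are high and those of WT 2 and WT 4 low for most rows, with Anln and Pttg1 as exceptions.

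Other library values moved with the sums in part. Ranked by the lowest unmapped share, KO 3, WT 1 and WT 3 came first and WT 4 last, while KO 4, second by mitotic sum, was second to last at 21.8%. The 30 genes of DNA replication and S phase summed to 587 to 719 CPM in KO and 477 to 665 CPM in WT, with KO 3 and KO 4 highest and WT 2 and WT 4 lowest there too. Their highest library exceeded the lowest 1.51-fold, against 2.68-fold for the mitotic sum. Fibroblast markers, of which all 10 were tested and 9 had negative log2 fold changes, summed to 303 to 649 CPM in KO and 762 to 1054 CPM in WT. Macrophage markers (10 of 10 negative) summed to 228 to 458 CPM in KO and 365 to 624 CPM in WT, and endothelial markers (9 of 9 tested negative) to 27.7 to 71.3 CPM in KO and 52.3 to 158 CPM in WT. T and NK cell markers (3 of 10 tested) summed to 4.43 to 34.4 CPM in KO and 11.5 to 20.1 CPM in WT. Of 8 milk protein genes 7 were tested, all negative, and the list summed to 2454 to 8029 CPM in KO and 3377 to 16994 CPM in WT. B cell markers (1 of 5 tested) summed to 1.81 to 9.23 CPM in KO and 5.23 to 12.8 CPM in WT, and erythroid markers (5 of 5 negative) to 20.0 to 108.9 CPM in KO and 46.7 to 173 CPM in WT. At an unadjusted edgeR p under 0.05, 6 fibroblast, 3 endothelial and 2 macrophage markers and 6 milk protein genes were lower in KO. In these lists 0 were higher, and 4.59% of all genes were lower. Their median log2 fold changes were -0.71, -0.82, -0.57 and -3.32 in that order. No marker was at 0 in every library, and the part of cell makeup or of mapping in the mitotic values was not tested.

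**Figure D4:**
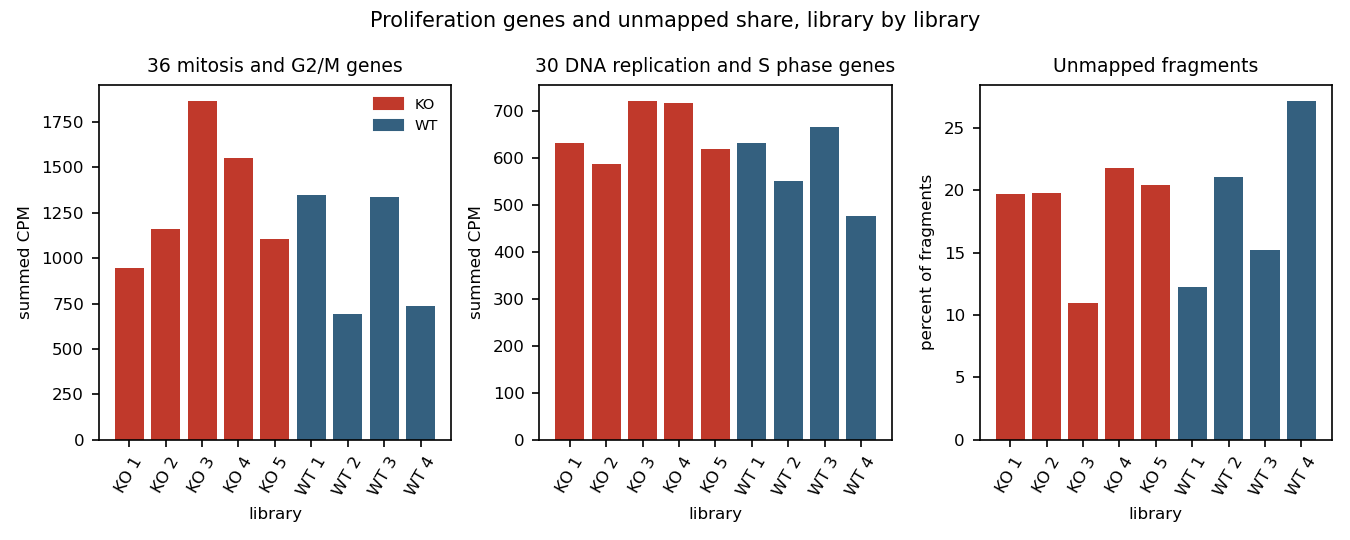
Summed CPM of the 36 mitotic genes, summed CPM of the 30 S phase genes and percent of fragments unmapped, 1 bar per library from 0, with KO libraries left of WT libraries. The mitotic sum is 1863 CPM in KO 3 and 695 CPM in WT 2, the S phase sum varies less, and the unmapped share is low in KO 3, WT 1 and WT 3.

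Cyclins and CDK1 control genes had a median log2 fold change of 0.13, with 4 of 6 positive. Cdk1 (ENSMUSG00000019942.13, chromosome 10, 69335146 to 69352938, GRCm38), the kinase that drives mitotic entry, stood at 14.2, 15.6, 26.3, 20.6 and 16.8 CPM in KO 1 to KO 5, against 25.1, 8.78, 23.1 and 12.1 CPM in WT 1 to WT 4. Ccnb1 (ENSMUSG00000041431.16, chromosome 13, 100778650 to 100786570), the B-type cyclin that activates it, stood at 6.50, 6.35, 14.8, 9.03 and 9.57 CPM in KO 1 to KO 5, against 17.4, 2.93, 13.5 and 4.48 CPM in WT 1 to WT 4. Both were highest in KO 3, WT 1 and WT 3 among the 9 libraries and lowest in WT 2, and their groups overlapped. Cdk1 had a fitted log2 change of 0.11 ± 0.31 (SE, 95% interval -0.56 to 0.78, edgeR adjusted p = 0.944) and Ccnb1 one of -0.05 ± 0.47 (SE, 95% interval -1.07 to 0.97, edgeR adjusted p = 0.984). Ccnb1 has 4 near-identical copies elsewhere in the genome, of 96.61% to 99.22% identity over 383 to 1294 aligned bases. These copies held 0 to 2 counts over all 9 libraries, and fragments that match a copy equally well are not counted, so its level is uncertain.

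Foxm1 and Cdc25c had the smallest p-values of the group. Foxm1 (ENSMUSG00000001517.14, chromosome 6, 128362967 to 128376146) encodes the forkhead factor that transcribes G2 and mitotic genes, and its level was 15.2, 16.6, 23.2, 25.3 and 22.2 CPM in KO 1 to KO 5, against 16.0, 11.3, 18.6 and 14.3 CPM in WT 1 to WT 4. Cdc25c (ENSMUSG00000044201.10, chromosome 18, 34732993 to 34751533), a phosphatase that activates CDK1, had 7.29, 7.66, 14.1, 12.3 and 11.8 CPM in KO 1 to KO 5, against 9.30, 3.97, 8.64 and 4.70 CPM in WT 1 to WT 4. For both genes KO 3, KO 4 and KO 5 exceeded every WT library, while KO 1 and KO 2 lay within the WT range. Foxm1 had a log2 fold change of 0.44 ± 0.20 (SE, 95% interval -0.0033 to 0.88, edgeR adjusted p = 0.630) and Cdc25c one of 0.67 ± 0.31 (SE, 95% interval -0.0052 to 1.35, edgeR adjusted p = 0.630), with unadjusted p of 0.0514 and 0.0515. The A-type cyclin Ccna2 had a log2 fold change of -0.032 ± 0.35 and the B-type cyclin Ccnb2 one of 0.15 ± 0.20 (SE).

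Mitotic kinases had a median log2 fold change of 0.32, with 5 of 6 positive. Plk1 (ENSMUSG00000030867.7, chromosome 7, 122159439 to 122169873), the polo-like kinase of centrosome maturation and mitotic entry, stood at 8.86, 12.9, 10.3, 16.1 and 13.7 CPM in KO 1 to KO 5, against 11.2, 7.11, 12.1 and 8.73 CPM in WT 1 to WT 4. Aurkb (ENSMUSG00000020897.12, chromosome 11, 69045647 to 69051664), the kinase of the chromosomal passenger complex, stood at 10.2, 12.4, 10.2, 17.9 and 13.7 CPM in KO 1 to KO 5, against 11.9, 6.27, 14.96 and 10.1 CPM in WT 1 to WT 4. Both peaked in KO 4 and were lowest in WT 2, with the remaining libraries of the groups mixed. Their log2 fold changes were 0.33 ± 0.23 (SE, 95% interval -0.16 to 0.83, edgeR adjusted p = 0.712) for Plk1 and 0.25 ± 0.26 (SE, 95% interval -0.32 to 0.82, edgeR adjusted p = 0.828) for Aurkb. Bub1b (ENSMUSG00000040084.9, chromosome 2, 118598211 to 118641591), the checkpoint protein BUBR1 that restrains the anaphase-promoting complex, had 29.0, 36.5, 46.5, 56.3 and 36.1 CPM in KO 1 to KO 5, against 31.9, 20.1, 39.9 and 33.3 CPM in WT 1 to WT 4, with a log2 fold change of 0.38 ± 0.23 (SE, 95% interval -0.11 to 0.88, edgeR adjusted p = 0.683). KO 3 and KO 4 were above every WT library for Bub1b and KO 1 was below WT 1, WT 3 and WT 4. The checkpoint kinases Ttk and Bub1 had log2 fold changes of 0.54 ± 0.38 and 0.31 ± 0.39, and the spindle pole kinase Aurka had -0.057 ± 0.32 (SE).

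Centromere and kinetochore genes were positive in 5 of 5, with a median log2 fold change of 0.36. Cenpa (ENSMUSG00000029177.9, chromosome 5, 30666777 to 30674830), the histone H3 variant that marks centromeres, had 18.3, 18.3, 36.1, 26.4 and 22.7 CPM in KO 1 to KO 5, against 26.5, 12.5, 21.4 and 18.1 CPM in WT 1 to WT 4. KO 3 was highest and WT 2 lowest, and WT 1 exceeded 4 of the 5 KO libraries and not KO 3. Its log2 fold change was 0.31 ± 0.25 (SE, 95% interval -0.25 to 0.87, edgeR adjusted p = 0.757). The kinetochore motor Cenpe and the large kinetochore protein Cenpf had log2 fold changes of 0.36 ± 0.27 and 0.41 ± 0.29. Ndc80 and Nuf2, subunits of the complex that binds microtubule ends, had 0.37 ± 0.32 and 0.29 ± 0.31 (SE).

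Chromosome and passenger complex genes were positive in 3 of 3, with a median log2 fold change of 0.32. Mki67 (ENSMUSG00000031004.8, chromosome 7, 135689784 to 135716361), the mitotic chromosome coat protein Ki-67 used to stain dividing cells, stood at 255, 336, 563, 453 and 302 CPM in KO 1 to KO 5, against 369, 152, 358 and 167 CPM in WT 1 to WT 4. Top2a (ENSMUSG00000020914.17, chromosome 11, 98992943 to 99024189), the topoisomerase that separates sister DNA, stood at 89.6, 110.5, 214, 136 and 95.1 CPM in KO 1 to KO 5, against 157, 73.2, 131 and 56.6 CPM in WT 1 to WT 4. Birc5 (ENSMUSG00000017716.15, chromosome 11, 117849251 to 117855743), which encodes the passenger complex subunit survivin, stood at 8.67, 11.6, 15.4, 15.9 and 10.8 CPM in KO 1 to KO 5, against 13.5, 5.02, 13.6 and 7.61 CPM in WT 1 to WT 4. All 3 had WT 1 and WT 3 well above WT 2 and WT 4, and WT 1 exceeded KO 1, KO 2 and KO 5 for each. Log2 fold changes were 0.55 ± 0.32 (SE, 95% interval -0.15 to 1.24, edgeR adjusted p = 0.680) for Mki67, 0.31 ± 0.33 (SE, 95% interval -0.42 to 1.03, edgeR adjusted p = 0.834) for Top2a and 0.32 ± 0.30 (SE, 95% interval -0.34 to 0.99, edgeR adjusted p = 0.800) for Birc5.

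Spindle motors and spindle proteins had a median log2 fold change of 0.25, with 5 of 6 positive. Kif11 (ENSMUSG00000012443.4, chromosome 19, 37376403 to 37421859), the kinesin that pushes spindle poles apart, stood at 29.5, 35.2, 67.6, 43.9 and 33.7 CPM in KO 1 to KO 5, against 42.6, 22.8, 41.5 and 21.3 CPM in WT 1 to WT 4. Kif2c (ENSMUSG00000028678.13, chromosome 4, 117159639 to 117182639), a kinesin that takes apart microtubule ends, stood at 11.03, 11.6, 13.96, 18.2 and 10.4 CPM in KO 1 to KO 5, against 10.0, 5.23, 12.3 and 7.39 CPM in WT 1 to WT 4. Kif11 was highest in KO 3 and Kif2c in KO 4, and WT 3 lay above 3 of the KO libraries for both. The log2 fold change of Kif11 was 0.39 ± 0.29 (SE, 95% interval -0.24 to 1.02, edgeR adjusted p = 0.729) and that of Kif2c was 0.57 ± 0.27 (SE, 95% interval -0.012 to 1.15, edgeR adjusted p = 0.633). The Aurora A activator Tpx2 had 0.32 ± 0.25, the chromosome-arm kinesin Kif4 0.18 ± 0.23, the spindle protein Hmmr 0.17 ± 0.32 and the microtubule bundler Nusap1 -0.016 ± 0.32 (SE of log2 fold change).

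Central spindle and cytokinesis genes were positive in 7 of 7, with a median log2 fold change of 0.34. Kif23 (ENSMUSG00000032254.10, chromosome 9, 61915905 to 61946774), the motor of the centralspindlin complex, stood at 13.99, 17.8, 37.4, 26.5 and 17.6 CPM in KO 1 to KO 5, against 15.8, 12.7, 19.4 and 13.0 CPM in WT 1 to WT 4. Kif20b (ENSMUSG00000024795.11, chromosome 19, 34922361 to 34975745), a kinesin of late cytokinesis, stood at 37.2, 53.0, 70.9, 66.1 and 38.3 CPM in KO 1 to KO 5, against 45.1, 22.8, 49.7 and 33.8 CPM in WT 1 to WT 4. Kif20a (ENSMUSG00000003779.16, chromosome 18, 34624613 to 34633277), the kinesin that carries passenger proteins to the midzone, stood at 17.9, 17.3, 20.7, 24.0 and 16.8 CPM in KO 1 to KO 5, against 15.6, 11.5, 22.3 and 11.2 CPM in WT 1 to WT 4. KO 3 and KO 4 exceeded every WT library for Kif23, KO 2, KO 3 and KO 4 did so for Kif20b, and KO 4 alone did so for Kif20a. Kif23 had a log2 fold change of 0.57 ± 0.28 (SE, 95% interval -0.05 to 1.19, edgeR adjusted p = 0.645), Kif20b 0.49 ± 0.26 (SE, 95% interval -0.082 to 1.06, edgeR adjusted p = 0.656) and Kif20a 0.34 ± 0.22 (SE, 95% interval -0.14 to 0.83, edgeR adjusted p = 0.699). The midzone bundler Prc1, the other centralspindlin subunit Racgap1 and the RhoA exchange factor Ect2 had log2 fold changes of 0.38 ± 0.27, 0.23 ± 0.23 and 0.33 ± 0.26. Anillin (Anln), a contractile ring scaffold, had 0.0018 ± 0.27 (SE) and, unlike the rest, was highest in WT 2 at 71.5 CPM.

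The anaphase-promoting complex genes were the exception in sign, with 1 of 3 positive and -0.12 as the median log2 fold change. Cdc20 (ENSMUSG00000006398.15, chromosome 4, 118432901 to 118437352), its mitotic activator, had 14.8, 12.1, 13.5, 25.5 and 20.2 CPM in KO 1 to KO 5, against 16.0, 9.61, 18.4 and 11.4 CPM in WT 1 to WT 4. Ube2c (ENSMUSG00000001403.13, chromosome 2, 164769898 to 164778822), the ubiquitin-conjugating enzyme that serves it, had 7.88, 7.66, 7.55, 8.48 and 14.2 CPM in KO 1 to KO 5, against 13.3, 6.06, 13.3 and 7.16 CPM in WT 1 to WT 4. KO 4 and KO 5 were highest for Cdc20 and KO 5 for Ube2c, while WT 1 and WT 3 exceeded the other 4 KO libraries for Ube2c. Their log2 fold changes were 0.30 ± 0.27 (SE, 95% interval -0.28 to 0.89, edgeR adjusted p = 0.781) and -0.12 ± 0.30 (SE, 95% interval -0.77 to 0.53, edgeR adjusted p = 0.936). Pttg1, the separase inhibitor securin, stood at -0.12 ± 0.20 (log2 fold change, SE) and showed the flattest profile, with a range of 6.24 to 9.75 CPM in the KO libraries and 6.98 to 9.61 CPM in the WT libraries.

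Levels between genes were compared per kilobase of exon, as the mean CPM per kb over the 9 libraries. Exon length merges the exons of all annotated transcripts of a gene, so the ranking depends in part on the annotation. Mki67 ranked first at 32.6 CPM per kb, then Top2a at 13.1, Bub1b at 8.56 and Cdc20 at 8.41. Nuf2 was last at 1.38, below Cdc25c at 1.80, Ttk at 1.91, Ndc80 at 2.03 and Ccnb1 at 2.23 CPM per kb. Strand bears on 9 of the 36, which share 53 to 1271 exon bases with a gene on the other strand. Kif20a shares 1271 of its 4338 exon bases with Cdc23 and Ube2c 592 of 2600 with Tnnc2. How the counting treated strand is not stated in the labels, so reads there cannot be assigned with certainty.

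The excess in KO 3 differed with the annotated exon length of the gene, which need not be the length of its main transcript. Split at the median member, the 18 genes of 4934 to 15433 exon bases had a median log2 ratio of KO 3 to the mean of the other KO libraries of 0.68, and 15 of them were highest in KO 3 and 2 in KO 4. The 18 genes of 1531 to 4919 bases had 0.24, with 4 highest in KO 3 and 10 in KO 4. For KO 4 against the other KO libraries, KO 3 among them, the medians were 0.24 for the longer and 0.43 for the shorter genes. The KO 3 excess in longer genes lowers the KO 4 ratio there. These medians thus show no separate dependence of KO 4 on length. The KO 3 ratio was also taken over all genes tested, with a pseudocount of 0.5 CPM. Its median was 0.032 for 5961 genes longer than the median member and -0.047 for 8686 others. The log2 fold change of KO over WT had a median of 0.34 in the longer and 0.31 in the shorter genes. KO 3 had the lowest unmapped share and the highest share outside genes, and whether library quality enters this was not tested. Without KO 3, 27 of the 36 log2 fold changes were positive.

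**Figure D5:**
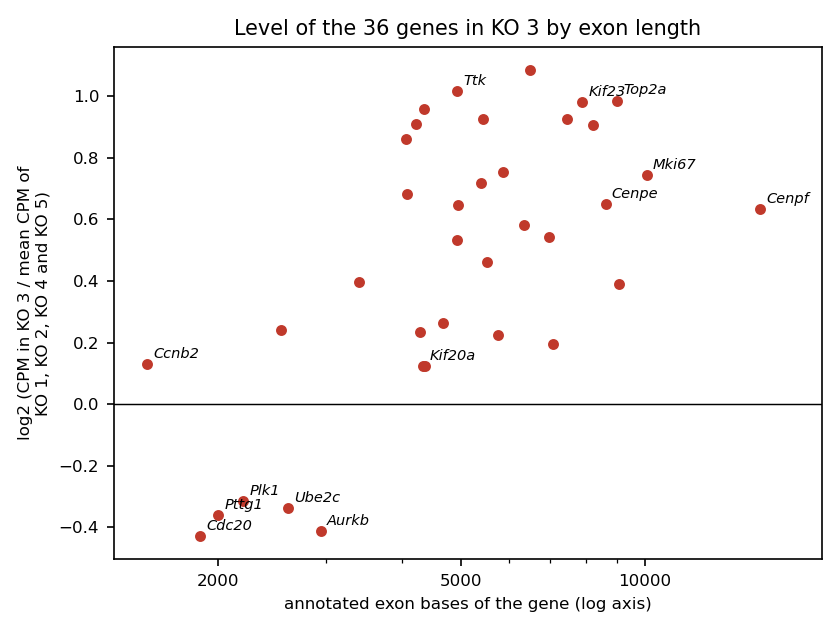
Log2 ratio of KO 3 to the mean of the other 4 KO libraries (vertical axis) against exon length in bases on a log axis, 1 red point per gene and a line at 0. The median is 0.68 for the longer and 0.24 for the shorter genes, and Plk1, Pttg1, Cdc20, Ube2c and Aurkb lie below 0.

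Other genes of the pathway were read from 7 lists with no member of the 36. Together 137 of 138 were tested, of which 111 (81.0%) had a positive log2 fold change with a median of 0.16, against 50.0% and -0.00 over all genes. Adjusted p-values of edgeR called 0 of them. Of those named below, DESeq2 called Hjurp alone at an adjusted p under 0.05. Unadjusted in edgeR, 16 (11.7%) had a p under 0.05 and stood higher in KO, where 3.36% of all genes did, and 3 (2.19%) stood lower, where 4.59% did. These lists share the 9 libraries with the 36 genes and are no separate test.

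Single genes of these lists are given as log2 fold changes with SE, and are the 3 of each list with the smallest unadjusted edgeR p. Low p-values and groups that do not overlap thus come in part from that choice. Among regulators of CDK1, 10 of 14 were positive with a median of 0.15. Gtse1, a microtubule-binding protein of G2, averaged 12.1 ± 1.57 CPM in KO and 7.57 ± 1.51 CPM in WT, a log2 fold change of 0.68 ± 0.19 (SE, unadjusted p = 0.00424). Bora, a cofactor of Aurora A in activating Plk1, had 0.57 ± 0.19, and Arpp19, an inhibitor of the phosphatase that reverses CDK1 phosphorylation, had -0.44 ± 0.15. Of 37 checkpoint and kinetochore genes 30 were positive, with a median of 0.20. The centromere protein gene Cenpu averaged 6.80 ± 1.95 CPM in KO and 3.30 ± 1.02 CPM in WT, a log2 fold change of 1.03 ± 0.29 (SE, unadjusted p = 0.00414, adjusted p = 0.493). Hjurp, the chaperone that loads the centromeric histone, had 0.32 ± 0.10, and the centromere gene Cenpw had 0.97 ± 0.43. KO and WT libraries did not overlap for Gtse1, Arpp19, Cenpu and Hjurp, with Arpp19 the one below WT. Over all genes tested 2.70% had groups that did not overlap. Cenpu shares 1069 of its 3999 exon bases with Primpol on the other strand.

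Passenger complex and cytokinesis genes were positive in 12 of 12 tested, with a median of 0.32. Citron kinase (Cit) had a log2 fold change of 0.65 ± 0.22, the spindle protein Ckap2 0.63 ± 0.28 and the chromosome phosphatase subunit Cdca2 0.54 ± 0.26 (SE). Condensin, cohesin and separase genes were positive in 17 of 18 with a median of 0.16, led by separase (Espl1) at 0.54 ± 0.22 and the condensin subunits Ncapd3 at 0.28 ± 0.13 and Ncapd2 at 0.31 ± 0.15. Spindle kinesins and centrosome genes were positive in 18 of 20 with a median of 0.16, and the kinesins Kif18b and Kif15 had 0.79 ± 0.26 and 0.64 ± 0.27, and the spindle protein Spag5 0.63 ± 0.21. The anaphase-promoting complex had the smallest median of the 7 lists, with 11 of 17 positive and a value of 0.035. Its subunit Anapc13 had -0.37 ± 0.14, with every KO library below every WT library, its enzyme Ube2s 0.28 ± 0.12 and its activator Fzr1 0.18 ± 0.15. Anapc13 shares 239 of its 2377 exon bases with Cep63 on the other strand.

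Regulators of the transcription of these genes gave values of both signs. Of 19 DREAM, MuvB and E2F genes 13 were positive, with a median log2 fold change of 0.10. Rb1, the retinoblastoma repressor, averaged 264 ± 27.1 CPM in KO and 363 ± 66.8 CPM in WT (SD), a log2 fold change of -0.46 ± 0.15 (SE, unadjusted p = 0.00899), and every KO library lay below every WT library. Of its 6015 exon bases Rb1 shares 488 with Rcbtb2 and 408 with Lpar6, both on the other strand. The repressor E2f8 had 0.64 ± 0.23 and the activator E2f1 0.59 ± 0.24. Rb1 lies on chromosome 14, which also holds 7 of the 13 genes called, and so do Bora and Cdca2, whose log2 fold changes were positive. The share of all genes tested that lies there was not computed, and a link with position was not tested. Genes of S phase were positive in 25 of 30 with a median of 0.17, among them the polymerase subunit Pola1 at 0.44 ± 0.18, Uhrf1 at 0.44 ± 0.20 and Mcm5 at 0.33 ± 0.20. Genes of G1 had values of both signs, with 5 of 11 positive and a median of -0.038. The CDK inhibitor p21 (Cdkn1a) had 0.58 ± 0.24, Cdkn1b -0.13 ± 0.10 and the kinase Cdk6 -0.26 ± 0.22.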

How the data were processed

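Stranded, ribosomal-RNA-depleted libraries of 9 dissociated tumors were sequenced as paired ends, per the labels' protocols. Trimmomatic 0.36, FastQC 0.11.5, STAR 2.5.4a and GRCm38 are named in the submitters' processing notes. The deposited table holds raw counts of fragments for each gene in each library, laid out like STAR's own gene counts. Its annotation release and its treatment of strand are not stated in the labels. Rows that name no gene (10.99% to 27.1% of fragments unmapped, 5.50% to 9.53% multimapped, 34.0% to 50.4% without a feature and 0.971% to 1.23% ambiguous) stayed out of library sizes and tests. Of 55401 gene identifiers 55141 were matched to GRCm38 symbols.

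KO was compared with WT in edgeR 4.0.16 (R 4.3.3; glmQLFit and glmQLFTest, two-sided) on the counts, with TMM factors, filterByExpr and genotype alone, and Benjamini-Hochberg adjustment over 14665 genes. SE is the log2 fold change over the square root of F, and 95% intervals use the fit's degrees of freedom. The fit was tested on simulated data. Alternatives were DESeq2 1.42.0, limma-voom (limma 3.58.1), other scalings and filters, covariates, the replicate number as a block and each library left out.

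The genes and lists were chosen with earlier results of these data known. Values in every library are given for 12 well-known genes and the 6 others with the smallest p. Of each pathway list the 3 genes with the smallest p are named. Within KO and within WT, no pair of libraries agreed within sampling noise. Same-numbered KO and WT libraries had correlations of deviations of -0.024, 0.38, 0.11 and 0.38, so the numbers were not taken as pairs.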

Additional observations from a re-analysis of the deposited data

Results flagged for a closer look

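Of 134 groups of KO or WT libraries examined for the named genes, 7 held a library that stood apart from the rest of its group, by a criterion that chance alone meets in about 1 of 20 groups. Among the mitotic genes these were Ttk in KO 3, at 18.4 CPM against 7.68 to 10.5 CPM in the other KO libraries, and Ube2c in KO 5, at 14.2 CPM against 7.55 to 8.48 CPM. Among the other pathway genes Cenpu stood at 10.2 CPM in KO 3, against 5.32 to 6.68 CPM in the other KO libraries. KO 4 stood apart for Cit at 93.7 CPM (47.9 to 58.1 CPM in the others), for Espl1 at 37.4 CPM (24.0 to 27.9 CPM) and for Kif18b at 17.0 CPM (11.3 to 12.7 CPM). Hjurp stood at 230.0 CPM in WT 3, against 202 to 205 CPM in the other WT libraries.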

How the results depend on the processing

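None of the 36 mitotic genes was called under any of 19 alternatives, with a smallest adjusted p of 0.298, and 26 of the 36 kept their sign in all of them. Of the other pathway genes named, Hjurp was called in DESeq2, though not in edgeR. The number of genes called over the whole table was 13, against 68 in DESeq2, 29 with no filter on low counts, 6 at a mean count of at least 50 (which left 32 of the 36) and 6 to 13 with 1 library left out. Mitotic genes at an unadjusted p under 0.05 numbered 0, against 2 in DESeq2, 1 with upper-quartile factors, 2 with library totals, 4 with no filter, 7 with the unmapped share as a covariate (chosen after seeing the data) and 0 to 7 with 1 library left out. The replicate block gave 4 such genes, and not every library correlated best with its own number. The median log2 fold change of 0.31 was 0.12 to 0.47 over all alternatives. The cause of these differences was not tested.

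Signs turned for 10 genes. Ccna2 had log2 fold changes of 0.024 in limma-voom, 0.017 with library totals, 0.065 with the replicate block and 0.045 with the unmapped share; Ccnb1 had 0.052 in limma-voom, 0.13 with the block and 0.089 with the unmapped share; Aurka had 0.041 in limma-voom, 0.0010 with library totals and 0.11 with the block. Anln had -0.00082 in DESeq2, -0.016 in limma-voom, -0.0014 with RLE factors, -0.0043 with no filter and -0.0076 with the unmapped share, and Nusap1 0.010 with upper-quartile factors and 0.032 with library totals. Age as a covariate gave -0.20 for Cdk1, -0.056 for Bub1, -0.15 for Hmmr and 0.047 for Pttg1. With 1 library left out Ccna2 was -0.27 to 0.30, Ccnb1 -0.35 to 0.38, Aurka -0.33 to 0.12, Anln -0.22 to 0.26, Nusap1 -0.23 to 0.21, Cdk1 -0.11 to 0.34, Hmmr -0.071 to 0.41 and Ube2c -0.34 to 0.063. Every mitotic gene had at least 14 counts in each library, and the SE did not follow depth alone. It was 0.32 for Mki67, at 725 to 3431 counts a library, and 0.20 for Pttg1, at 30 to 54. The largest was 0.47, for Ccnb1 at 14 to 90 counts.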
